A study of Mus musculus with 6 samples.

Results

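Grin2b encodes GluN2B, a glutamate-binding subunit of the NMDA receptor, and its circular RNAs (circRNAs) were described here in mouse hippocampus with and without chronic unpredictable stress. A circRNA is a transcript closed into a ring when a downstream splice donor joins an upstream acceptor. The circRNAs of Grin2b are the 8, of 10652 in the table, whose host gene list holds the Ensembl identifier of Grin2b (ENSMUSG00000030209). Grin2b was chosen by values of these same libraries, namely the group difference of its summed circRNA level and of mmu_circRNA009091, so the levels of its circRNAs are given below as a description and no p-value is attached to them.

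The study compared 3 hippocampal libraries labelled CUS, from mice exposed for 4 weeks to randomly scheduled mild stressors, with 3 libraries labelled Control, from mice without that schedule. All animals were adult male C57BL/6J mice, bought at 8 to 10 weeks of age, with no engineered allele in the labels, whose strain field reads C57BL/6. The samples are labelled as independent, but not as single mice or pools, so errors and p-values cover only the spread between libraries, which may be technical. RNA was selected for poly(A) in 2 rounds before library preparation, and a ring carries no poly(A) tail, which limits these libraries as a measure of circRNAs.

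NMDA receptors are cation channels that open when glutamate and glycine or D-serine are bound and depolarisation relieves their magnesium block, and the calcium they admit starts long-term changes of synaptic strength. They are assembled from the obligatory GluN1 subunit with GluN2 or GluN3 subunits. GluN2B is the prevailing GluN2 subunit in the young forebrain, remains abundant in the adult hippocampus, and carries a long cytoplasmic tail that docks the kinase CaMKII and the PSD-95 family of scaffolds. A circRNA level measures neither the Grin2b messenger RNA nor the receptor.

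Grin2b lies on the minus strand of chromosome 6, from 135713233 to 136173511 on GRCm38 (GENCODE vM21), a gene of 460 kb whose transcript Grin2b-201 has 14 exons. These are positions of the host gene and not of its circRNAs, which were analysed without coordinates, lengths or exon numbers. All 8 circRNAs were classed as exonic by the authors, each listed Grin2b as its only host, and their identifiers run without a gap from mmu_circRNA009089 to mmu_circRNA009096. Order was checked among the circRNAs with a single host identifier that was matched in GENCODE. There, identifiers followed the position of the hosts on each chromosome in 3626 of 3654 neighbouring pairs with different hosts (99.2%). Whether the order within Grin2b also follows position was not tested.

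Levels are 10 to the deposited value, with 0 kept as 0. They appear to have been divided by a factor for each library, the reads behind them are unknown, and a listed 0 does not show absence. The Control libraries held 4329 to 4606 circRNAs above 0 and the CUS libraries 3991 to 4273. The linear values of a library are whole multiples of a smallest unit, its step, which was inferred from the values. If depth is inverse to the step, relative depths were 90.8% to 100% of the deepest library in Control and 81.9% to 89.8% in CUS. The part of depth in the group differences below was not tested.

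The summed level of the 8 circRNAs, called the host sum, was higher on average in CUS, but the groups overlapped. Control replicates 1 to 3 stood at 3264, 1044 and 1676, and CUS replicates 1 to 3 at 5177, 4397 and 3221. CUS replicate 3 lay just below Control replicate 1, and the other CUS libraries lay above every Control library. The mean of Control was 1994 ± 1144 and that of CUS 4265 ± 985 (SD, n = 3 each), a ratio of 2.14. The means differed by 2271. Because this group difference helped to choose Grin2b, it is not weighed against the SDs. As a share of all circRNA levels in a library, Grin2b took 0.161%, 0.0509% and 0.0825% in Control and 0.259%, 0.216% and 0.162% in CUS. In bulk tissue, more cells of a type and more RNA per cell cannot be told apart.

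**Figure D1:**
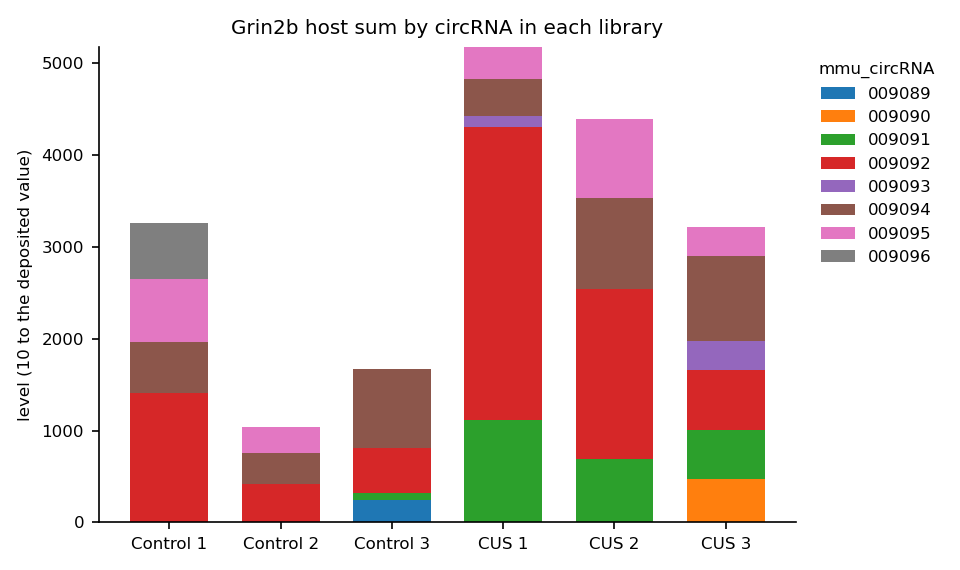
Stacked bars give the level (10 to the deposited value, linear axis from 0) of each of the 8 Grin2b circRNAs in each of the 6 libraries, and the height of a bar is the host sum. The red and green segments, mmu_circRNA009092 and mmu_circRNA009091, make up most of CUS replicate 1 (5177), while CUS replicate 3 (3221) and Control replicate 1 (3264) reach nearly the same height with different segments.

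On the scale of log2(level + 45.5), whose pseudocount is the median of the 6 libraries' lowest levels above 0, the host sum differed by 1.20 (SE 0.44, CUS minus Control). Leaving out Control replicate 1 raised that difference to 1.63, and leaving out Control replicate 2 lowered it to 0.83. The ratio of means ranged from 1.73 to 3.14 when each library was left out in turn.

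The host sum rested on 4 circRNAs that were above 0 in at least 3 of the 6 libraries, namely mmu_circRNA009091, mmu_circRNA009092, mmu_circRNA009094 and mmu_circRNA009095. The other 4 each appeared in 1 or 2 libraries. Only mmu_circRNA009092 and mmu_circRNA009094 were above 0 in all 6 libraries. Levels of different circRNAs were not set per length, because circRNA lengths were not used here, so a share of the host sum is a share of levels and not of molecules.

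mmu_circRNA009092 had the highest mean level in both groups and led the sum in replicates 1 and 2 of each. Its level was 1412, 416 and 492 in Control versus 3187, 1845 and 647 in CUS. CUS replicates 1 and 2 were above every Control library, and CUS replicate 3 was below Control replicate 1. The means were 773 ± 555 and 1893 ± 1271 (SD, n = 3 each), so the difference was smaller than the spread within CUS. Its share of the host sum was 43.3%, 39.9% and 29.4% in Control versus 61.6%, 42.0% and 20.1% in CUS. The mean share was thus close in the groups, 37.5% ± 7.25 against 41.2% ± 20.8 (SD, n = 3 each), and the CUS libraries spanned a wider range on both sides.

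The member that separated the groups was mmu_circRNA009091. It was listed at 0 in Control replicates 1 and 2, at 71.8 in Control replicate 3, and at 1120, 694 and 535 in CUS. All CUS libraries were above all Control libraries. It carried 21.6%, 15.8% and 16.6% of the host sum in CUS and 4.29% in Control replicate 3. This was the only one of the 4 tested members, and of all 8, whose groups did not overlap. It was above 0 in 1 Control and 3 CUS libraries, so CUS alone brought it past the filter of at least 3 libraries. Of 3896 circRNAs tested, 225 (5.78%) had every CUS library above every Control library and 198 (5.08%) the reverse. Because this contrast chose Grin2b, nothing is read from that count.

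mmu_circRNA009094, the other member above 0 in all 6 libraries, varied less than mmu_circRNA009092. Its level was 553, 340 and 867 in Control versus 407, 990 and 935 in CUS. The groups overlapped, with means of 587 ± 265 and 777 ± 322 (SD, n = 3 each), and the difference of 190 was below the spread in either group. It was the leading circRNA in Control replicate 3 (51.7% of the host sum) and in CUS replicate 3 (29.0%), where mmu_circRNA009092 came next. In the remaining libraries it held 16.9% and 32.6% in Control and 7.86% and 22.5% in CUS.

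mmu_circRNA009095 was at 681, 287 and 0 in Control versus 345, 869 and 315 in CUS. The groups overlapped, with the highest value in CUS replicate 2. It carried 20.9%, 27.5% and 0% of the host sum in Control and 6.66%, 19.8% and 9.79% in CUS.

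The 4 sparse members were each tied to 1 or 2 libraries. mmu_circRNA009096 was at 618 in Control replicate 1 and at 0 elsewhere, and it made up 18.9% of the sum in that library. mmu_circRNA009089 was at 245 in Control replicate 3 alone, 14.6% of the sum there. mmu_circRNA009090 was at 473 in CUS replicate 3 alone, 14.7% of the sum there. mmu_circRNA009093 was at 118 in CUS replicate 1 and 315 in CUS replicate 3 and at 0 in the other libraries. Summed over these 4, the level was 618, 0 and 245 in Control versus 118, 0 and 788 in CUS, which overlapped. The level of mmu_circRNA009093 in CUS replicate 3 equalled that of mmu_circRNA009095 (315), while in the other libraries where either was above 0 the 2 differed.

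**Figure D2:**
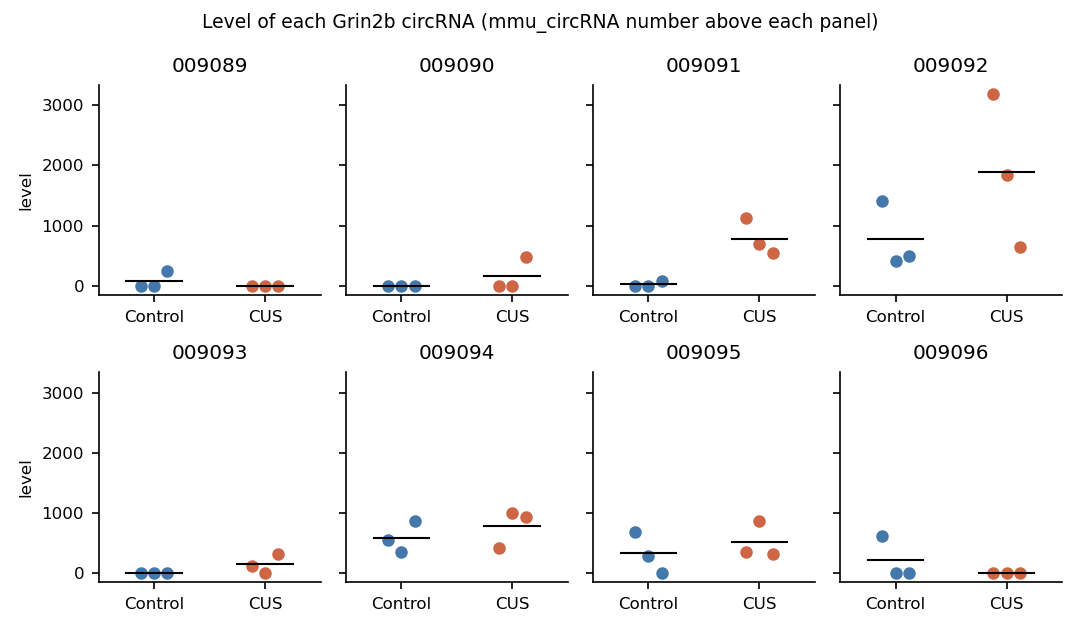
Each panel shows 1 Grin2b circRNA, with 1 point per library (3 Control in blue, 3 CUS in orange), the group mean as a black line and the level on a shared linear axis. mmu_circRNA009091 is the panel whose groups do not overlap, at 535 to 1120 in CUS against 0 to 71.8 in Control.

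Control replicates 1 to 3 had 4, 3 and 4 of the 8 circRNAs above 0 and CUS replicates 1 to 3 had 5, 4 and 6. In CUS the pair of neighbouring identifiers mmu_circRNA009091 and mmu_circRNA009092 carried 83.2%, 57.7% and 36.7% of the sum. In Control the same pair carried 43.3%, 39.9% and 33.6%. The pair's summed level was 1412, 416 and 564 in Control versus 4307, 2539 and 1182 in CUS, with CUS replicate 3 below Control replicate 1. No 2 of the 8 circRNAs kept within 16 steps of each other in all libraries, a step being the smallest unit of which the linear values of a library are whole multiples. CircRNAs of 1 gene can still share reads.

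Of the difference of 2271 between the mean host sums, mmu_circRNA009092 made up 49.3% and mmu_circRNA009091 33.4%, together 82.7%. mmu_circRNA009094 and mmu_circRNA009095 added 8.38% and 8.23%, and the 4 sparse members a net 0.638%. The part of mmu_circRNA009092 depended on CUS replicate 1, since it was 26.0% without that library, against 46.4% to 62.4% when any other library was left out. The part of mmu_circRNA009091 stayed between 25.7% and 41.6% over the 6 libraries left out in turn. Its share of the Control sum rested on Control replicate 3, without which it was 0%.

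The host sum was also taken without these members. Without mmu_circRNA009091 the sum of the other 7 was 3264, 1044 and 1604 in Control versus 4057, 3703 and 2685 in CUS, a ratio of means of 1.77 with CUS replicate 3 again below Control replicate 1. Without mmu_circRNA009092 the sum was 1852, 628 and 1184 in Control versus 1990, 2552 and 2574 in CUS, a ratio of 1.94, and the groups no longer overlapped. Without both, the 6 others summed to 1852, 628 and 1112 in Control versus 870, 1858 and 2038 in CUS, a ratio of 1.33. CUS replicate 1 lay below 2 of the 3 Control libraries, and CUS replicates 2 and 3 lay above all of them. These subsets were picked after the values were seen.

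**Figure D3:**
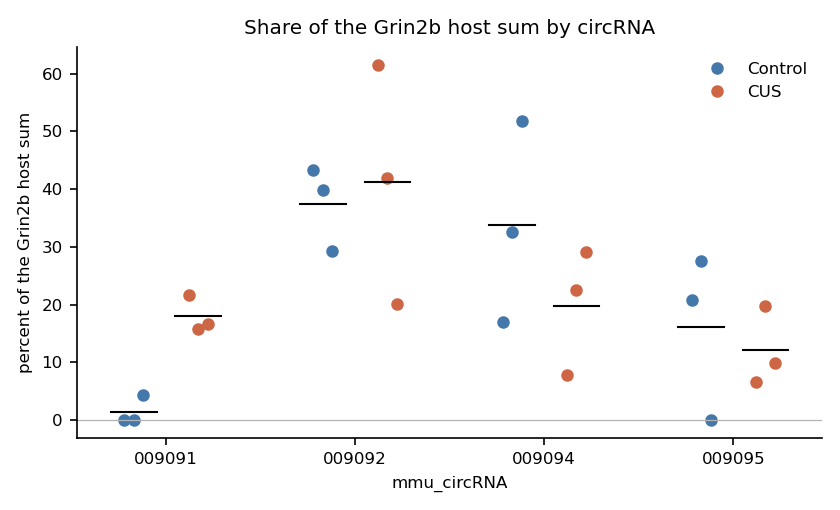
Points give the percent of the Grin2b host sum that each of the 4 circRNAs above 0 in at least 3 libraries held in each library (Control blue, CUS orange), and black lines give group means. mmu_circRNA009091 is at 0% to 4.29% in Control and 15.8% to 21.6% in CUS, while the other 3 overlap.

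The make-up of the host sum was set beside that of hosts with as many circRNAs. Grin2b was 1 of 48 hosts with 8 circRNAs, and 160 of 3772 hosts had more. Its leading circRNA held 42.6% of the mean host sum, where the median over the 48 hosts was 35.2% (19.3% to 89.9%). Its leading pair held 64.4%, against a median of 56.0%. It had 2 circRNAs above 0 in all 6 libraries against a median of 0, and 3 seen in 1 library only against a median of 2.

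Other subunits of ionotropic glutamate receptors were examined by host sum with limma, with p-values adjusted over all 2227 hosts above 0 in at least 3 libraries. Of 16 listed subunit genes, 12 had a circRNA (55 in all) and 10 were tested. None passed at an adjusted p under 0.05, as for all hosts (0 of 2227, 0%), and none of the 10 had an unadjusted p under 0.05, where 127 of all hosts did (5.7%). Fitted differences were above 0 for 6 and below 0 for 4, with a median of 0.10 against -0.06 over all hosts, both on the log2 scale. The lists of glutamate genes leave out a few with lower fitted values in CUS, so their medians and counts by direction cannot be read against those of all hosts. Of single circRNAs, 0 of 3896 (0%) passed and 234 (6.01%) had an unadjusted p under 0.05.

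Among NMDA receptor subunits, Grin2a and Grin3a were tested, and Grin1, Grin2c, Grin2d and Grin3b had no circRNA in the table used. Grin2a encodes GluN2A, the subunit that joins and partly replaces GluN2B as the forebrain matures. Its 10 circRNAs summed to 2006, 1941 and 4471 in Control versus 1804, 2146 and 1449 in CUS. The groups overlapped, with a log2 difference of -0.53 (SE 0.47; limma adjusted p = 0.918). None of the 10 was above 0 in all 6 libraries, in contrast to the 2 of Grin2b.

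Grin3a encodes GluN3A, a glycine-binding subunit that lowers calcium entry through the receptor. Its 3 circRNAs summed to 823, 1283 and 689 in Control versus 1421, 1832 and 2588 in CUS. All CUS libraries were above all Control libraries, with a log2 difference of 1.03 (SE 0.57) that did not pass (limma adjusted p = 0.918). Of the tested hosts, 126 (5.66%) had their CUS libraries all above Control and 128 (5.75%) all below. Most of the Grin3a sum came from mmu_circRNA007220, at 823, 1238 and 620 in Control versus 1038, 1423 and 2232 in CUS. mmu_circRNA007219 was at 0, 45.4 and 0 in Control versus 383, 347 and 356 in CUS (limma adjusted p = 0.751 over all circRNAs). Its CUS libraries alone met the filter of at least 3 libraries above 0.

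**Figure D4:**
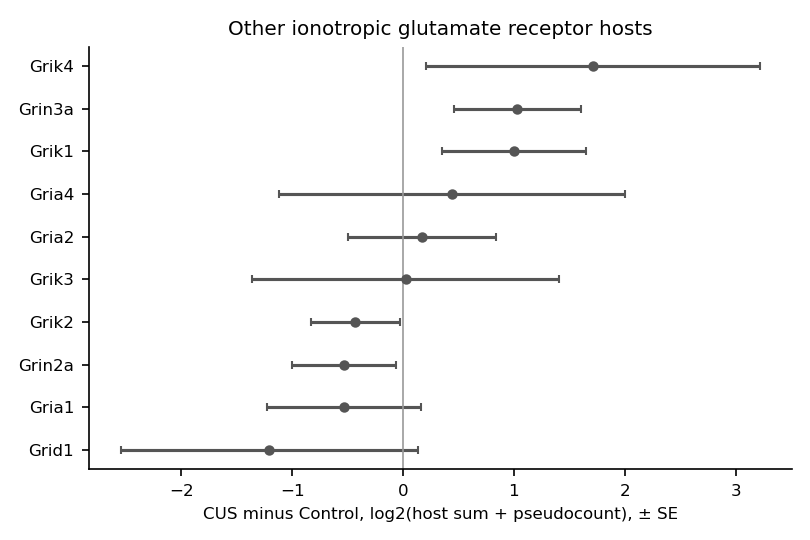
Points give the CUS minus Control difference of log2(host sum + pseudocount) for the 10 tested hosts of listed ionotropic glutamate receptor subunits other than Grin2b, with bars of 1 SE from limma. The points run from -1.20 (Grid1) to 1.71 (Grik4), on both sides of 0.

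The AMPA receptor subunits, which carry most fast excitatory transmission, showed no shared direction. Gria1 was at 1147, 620 and 1782 in Control versus 811, 699 and 701 in CUS. Gria2, whose edited subunit makes the channel impermeable to calcium, was at 818, 794 and 1122 in Control versus 1327, 1296 and 609 in CUS. Both overlapped between groups, with log2 differences of -0.54 (SE 0.69) and 0.17 (SE 0.67), and the latter changed sign without CUS replicate 1. Gria4 was at 186, 577 and 0 in Control versus 0, 1097 and 272 in CUS, and Gria3 was above 0 in Control replicate 1 (982) and CUS replicate 3 (122) only.

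Kainate receptor subunits, which tune transmitter release and the excitability of CA3, were likewise spread. Grik1 was at 302, 2105 and 766 in Control versus 1052, 1751 and 2405 in CUS, a log2 difference of 1.00 (SE 0.65). Grik2 was at 2383, 6908 and 5298 in Control versus 3346, 2009 and 5262 in CUS, a log2 difference of -0.43 (SE 0.40), and a pair of its circRNAs stayed within 3 steps of each other throughout and may share reads. Grik4 was at 0, 197 and 69.2 in Control versus 522, 67.3 and 652 in CUS, and Grik3 at 147, 174 and 569 against 112, 1003 and 120. Grik5 was above 0 in CUS replicate 2 alone (382). All of these ranges overlapped.

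Grid1, which encodes a delta receptor that acts as a synaptic organiser through binding of cerebellins, was at 1502, 156 and 322 in Control versus 233, 258 and 65.2 in CUS, with Control replicate 1 far above the rest. Its log2 difference was -1.20 (SE 1.34; limma adjusted p = 0.918), and -0.37 without that library.

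Of 42 listed genes of the NMDA receptor complex and its signalling, 23 had a circRNA and 19 were tested, 10 with a higher and 9 with a lower fitted value in CUS (median log2 difference 0.11). None passed. Dlg2, which encodes the PSD-93 scaffold that binds GluN2 tails, was at 1282, 1288 and 2128 in Control versus 666, 1191 and 707 in CUS. All CUS libraries were below all Control libraries, with a log2 difference of -0.85 (SE 0.62; limma adjusted p = 0.918). Rasgrf2, a calcium-regulated Ras exchange factor, had the smallest p of the list (limma unadjusted p = 0.061, adjusted p = 0.918). It was at 176, 855 and 229 in Control versus 463, 2063 and 1601 in CUS, and the groups overlapped.

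Homer1, a scaffold that links metabotropic receptors to the NMDA receptor complex, was at 802, 197 and 596 in Control versus 914, 1337 and 1006 in CUS. The groups did not overlap and the log2 difference was 1.14 (SE 0.79; limma adjusted p = 0.918). A pair of its 3 circRNAs stayed within 8 steps of each other and may share reads. With that pair counted once, Homer1 was at 647, 197 and 303 in Control versus 572, 820 and 514 in CUS, and the groups overlapped.

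Among 7 listed metabotropic glutamate receptor genes, 4 were tested, with 1 higher and 3 lower fitted values (median log2 difference -0.45). Grm5, whose receptor enhances NMDA receptor currents in the hippocampus, had a limma unadjusted p under 0.05. It was the only 1 of the 36 tested hosts of the glutamate lists, where 127 of all 2227 tested hosts (5.7%) had one. Genes left out of the lists are not in this count. The Grm5 sum was 5485, 8738 and 6790 in Control versus 2848, 3894 and 6032 in CUS. Its log2 difference was -0.75 (SE 0.34; limma adjusted p = 0.737). Grm4 was at 910, 701 and 1053 in Control versus 395, 0 and 916 in CUS, and Grm3 at 604, 509 and 737 against 1058, 237 and 1965. The groups of Grm3, Grm4 and Grm5 each overlapped. The log2 difference of Grm3 (0.38) was -0.23 without CUS replicate 3. Of 15 auxiliary and trafficking proteins of AMPA and kainate receptors, 9 had a circRNA and only Grip1, Nsf and Shisa7 were tested, each with a higher fitted value (median log2 difference 0.66). Nsf was at 1695, 595 and 2024 in Control versus 1489, 2749 and 2060 in CUS, Grip1 at 915, 484 and 1862 against 1439, 1202 and 875, and Shisa7 at 198, 0 and 0 against 0, 116 and 239, and all of these overlapped.

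Over the 4 glutamate lists, 36 of 80 genes were tested, 20 with a higher and 16 with a lower fitted value, and 0 passed. The lowest limma adjusted p was 0.737. Grin3a and Homer1 had all CUS libraries above Control, Homer1 only while its close pair was counted as separate circRNAs, and Dlg2 had all below. These were 2 of 36 above (5.56%) and 1 below (2.78%), where all tested hosts gave 5.66% and 5.75%. Because of the genes left out of the lists, these shares do not measure the whole families.

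The hosts whose levels across the 6 libraries were most like those of Grin2b were found among 920 hosts above 0 in every library. Likeness was the root mean square difference, over the 6 libraries, of log2(host sum + pseudocount) after each host was centred on its own mean. Cntnap2, a neurexin-family adhesion gene, came first at 0.11, against a median of 1.03. It was at 377, 90.8 and 154 in Control versus 666, 616 and 359 in CUS, so that Control replicate 2 was lowest and CUS replicate 1 highest, as for Grin2b. Ankfy1, an endosomal protein gene, followed at 0.26, then Acvr1b, an activin receptor gene, at 0.29, Sirt4, a mitochondrial sirtuin gene, at 0.29 and Homer1 at 0.35 (0.30 with its close pair counted once). In all 5, as in Grin2b, Control replicate 1 was above the other Control libraries. This largely follows from picking them by likeness over the same libraries, so nothing is read from it. With 6 libraries in 2 groups, a likeness of this kind is a description of these libraries.

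**Figure D5:**
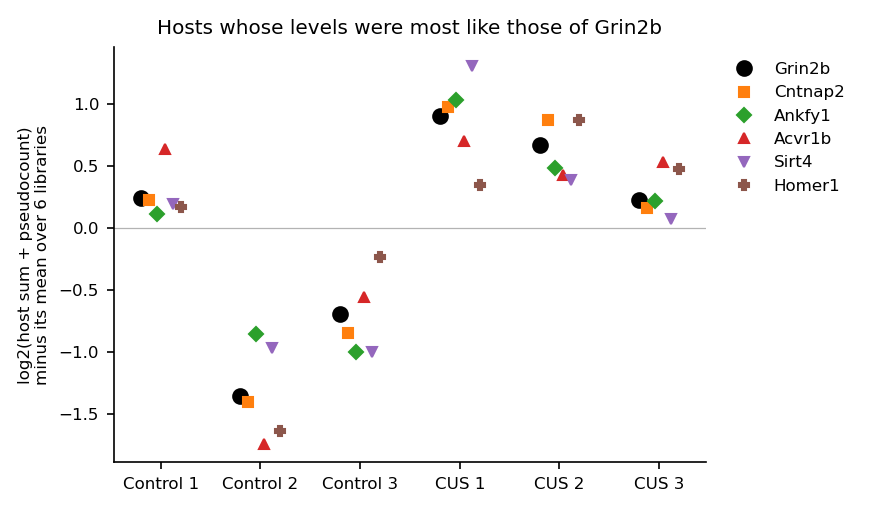
Points give log2(host sum + pseudocount) minus its mean over the 6 libraries for Grin2b (black circles) and the 5 hosts of smallest root mean square difference from it. In each host Control replicate 1 lies above the other 2 Control libraries, which largely follows from that choice. Cntnap2 (0.11) lies nearest to Grin2b.

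Marker hosts of hippocampal cell types were measured in the same libraries, and their part in the Grin2b levels was not tested. Dentate granule cell markers had a circRNA for 4 of 7 genes. Their summed level was 1527 to 3437 in Control and 4360 to 5619 in CUS without overlap, most of it from Rfx3. Rfx3 was at 1195, 1788 and 1426 in Control versus 4395, 2910 and 3158 in CUS (limma adjusted p = 0.737). The groups of Dock10, Stxbp6 and Prox1 each overlapped. Among all tested hosts, 126 (5.66%) had every CUS library above every Control library and 128 (5.75%) the reverse. Prox1, the defining marker, was at 0 in all but Control replicate 2 (95.8) and CUS replicate 3 (538). CA pyramidal markers had a circRNA for 2 of 7, with sums of 3926 to 6936 in Control and 2229 to 2948 in CUS, from a pair of hosts with opposite signs. Tenm3 gave most of the sum and was at 3942, 3926 and 6936 in Control versus 2084, 2676 and 2177 in CUS, while Cpne4 was at 0 in all Control libraries versus 144, 272 and 381 in CUS (limma adjusted p = 0.737 for each). Cpne4 met the filter of at least 3 libraries above 0 through CUS alone, so its separation of the groups followed from the filter. Wfs1 and Fibcd1 had none in the table used. Excitatory neuron markers (3 of 7) summed to 141 to 1799 in Control and 1023 to 1307 in CUS. Sums were 854 to 2862 and 1702 to 4750 for interneurons (2 of 8), 1374 to 2040 and 2039 to 2989 for oligodendrocytes (5 of 9), and 1085 to 1525 and 1462 to 2642 for astrocytes (3 of 8), in Control and CUS respectively. The oligodendrocyte and astrocyte lists each had 2 tested hosts with a higher and 1 with a lower fitted value. Gpc5, an astrocyte marker, was at 377, 1056 and 801 in Control versus 348, 296 and 179 in CUS, all below. Slc44a1, an oligodendrocyte marker, had all CUS libraries above Control. Microglial markers had none of 6 and vascular and choroid markers 1 of 6. Most defining markers thus had no circRNA, so the labelled region could be checked only weakly from circRNAs.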

How the data were processed

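CircRNA levels of 3 CUS and 3 Control hippocampal libraries were analysed. The authors deposited 1 table of log10 values per circRNA and library, with 0 where no value was given. The header names no unit. Per the submitters' processing notes, StringTie, edgeR, DESeq and the build mm9 were used, in roles not stated, and no circRNA caller is named. On the linear scale every library's values were whole multiples of its own step (100% of those under 300 steps, to within 0.05; lowest value 17 steps). What a step stands for is unknown, so reads could not be recovered and no counting interval is given.

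Host symbols came from GENCODE vM21 (4467 of 4483 identifiers matched). Of 786 circRNAs with several hosts, 583 were counted to the 1 that was protein-coding and 203 to none, leaving 9791 circRNAs and 3772 hosts. The test was limma 3.58.1 (R 4.3.3; lmFit and eBayes with a trend) on log2(level + 45.5) for features above 0 in at least 3 libraries, with Benjamini-Hochberg adjustment over all of them and a threshold of 0.05. Fold changes on this scale understate changes of low features. The code was tested on simulated host sums that were all above 0, which does not show what changes could be found in these libraries. Python 3.11.15, numpy 2.4.6, pandas 2.3.3 and matplotlib 3.10.9 were used.

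The members and lists were chosen with earlier results of these data known. The text names all Grin2b circRNAs, the listed ionotropic receptor subunit hosts, the 3 hosts of smallest p in each other list with those whose groups did not overlap, and the 5 hosts of most like levels. Of the glutamate genes considered, a few with lower fitted values in CUS are not reported here and were left out of the lists and their counts, so the lists do not give the balance of directions over the whole families. Alternatives covered the pseudocount, filter, trend, scaling, host assignment, close circRNAs, a replicate block and each library left out. Same-numbered libraries were not treated as pairs in the main fit. Their levels did not deviate together, which cannot settle whether the samples were paired by design. No sequence of a circRNA or its junction was analysed here.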

Additional observations from a re-analysis of the deposited data

How the results depend on the processing

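The Grin2b difference (log2 1.20) was 1.22 and 1.12 with 0.2 and 5 times the pseudocount, 1.22 with libraries rescaled to the same summed level, 1.22 under quantile normalization, and 0.94 without mmu_circRNA009091, an alternative chosen after seeing the data. Left-out libraries gave 0.83 to 1.63. No host, circRNA or listed glutamate host passed limma's adjusted threshold under any of the alternatives run. Among the 19 named glutamate hosts, 5 changed sign in some setting. Grik3 (0.02) was -0.023 with 0.2 times the pseudocount and -0.88 to 0.55 over left-out libraries. The ranges over left-out libraries were -0.64 to 1.69 for Gria4, -0.014 to 0.52 for Gria2, -0.23 to 1.18 for Grm3 and -0.18 to 0.74 for Grip1. The causes were not tested. Replicate numbers were shared between groups, but same-numbered libraries did not deviate together (r of -0.03, -0.04 and -0.08 across 2227 hosts), and with the replicate block the Grin2b difference was 1.20 and 0 hosts passed. The number of reads behind each value is unknown and limits members seen in 1 or 2 libraries most.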
